A study of Homo sapiens with 6 samples.

Results

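Connexins are the proteins of gap junctions, and pannexins are a related family of large-pore channels. The 8 genes described here are the connexin genes GJA1, GJA3, GJA4, GJA5, GJB2 and GJC1 and the pannexin genes PANX1 and PANX2, taken by symbol from the 27192 genes of the deposited tables. All 8 were present, and 5 had enough counts to be tested. RNA was measured in U87, an established human glioblastoma cell line, after knockdown of the long noncoding RNA LINC00152. The 3 siLINC00152 libraries came from cells given 2 siRNAs against LINC00152 together, and the 3 siGL2 libraries from cells given a nonspecific control siRNA. Both groups were transfected in 2 rounds 24 hours apart with the same lipid reagent and were collected 24 hours after the second round. Nothing in the labels says whether replicates A, B and C were separate cultures, and p-values therefore cover the spread among these 6 libraries alone, which may be technical.

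Connexin subunits assemble into hexameric hemichannels, and hemichannels of neighbouring cells dock to form a channel that passes ions and small metabolites between the cells. Alpha, beta and gamma connexins are branches of the family by sequence, and GJA1, which encodes connexin 43, is the main connexin of astrocytes. Pannexins form channels in the membranes of single cells, and PANX1 is best known for releasing ATP, which then acts on purinergic receptors.

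The data were whole-number read counts per gene, and levels are given as CPM, a count scaled to a common library total after TMM normalization. Total counts were 41963120 to 43713662 in the siLINC00152 libraries and 42139419 to 46234763 in the siGL2 libraries. LINC00152 stood at 2.67 ± 0.108 CPM in the siLINC00152 libraries and 15.1 ± 1.18 CPM in the siGL2 libraries (SD, n = 3 each). Of the astrocyte and glioma markers, AQP4 had no count in any library, and GFAP stood at 0.104 ± 0.0600 CPM in siLINC00152 and 0.154 ± 0.104 CPM in siGL2 libraries (SD, n = 3 each). S100B was listed at 0 in every siLINC00152 library and averaged 0.0148 CPM in the siGL2 libraries, whereas VIM (vimentin) stood at 6864 ± 101 CPM in siLINC00152 and 8974 ± 299 CPM in siGL2 libraries (SD, n = 3 each). The astrocyte glutamate transporter gene SLC1A3 stood at 32.2 ± 2.55 CPM in siLINC00152 and 44.2 ± 1.33 CPM in siGL2 libraries, and SLC1A2 at 1.37 ± 0.322 CPM in siLINC00152 and 1.20 ± 0.134 CPM in siGL2 libraries (SD, n = 3 each). Of the 9 markers of this list, 5 thus reached a mean of 1 CPM in a group, and AQP4, GFAP, S100B and ALDH1L1 did not. Markers of microglia and leukocytes summed to 286 to 312 CPM in siLINC00152 and 331 to 335 CPM in siGL2 libraries, mainly CD68, with AIF1 and TYROBP at 0. In the siLINC00152 libraries, 4529 of 14078 tested genes were higher and 4529 lower at an adjusted p under 0.05 (edgeR quasi-likelihood test, Benjamini-Hochberg adjustment), which is 32.2% in each direction. That balance depends on the scaling, and with library size alone in place of TMM 3755 were higher and 5389 lower. In such bulk RNA, fewer cells expressing a gene and less of its RNA per cell cannot be told apart. Within groups, siGL2 replicate A stood apart, with a chi-square of counts per degree of freedom of 10.9 and 13.7 against replicates B and C, which gave 2.91 against each other. Replicate A of the siLINC00152 group did so to a lesser degree, at 5.79 and 5.23 against B and C, which gave 3.07 against each other.

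The promoters of the 3 genes that carried most of the difference and have an entry in the promoter table are shown first, because 1 of these genes fell and 2 rose. Each runs from 250 bases before to 50 bases after the RefSeq start on GRCh38.p14, written 5′ to 3′ on the strand of the gene. These RefSeq starts differ from the starts of the gene spans given below, which come from GENCODE 29. The PANX1 window lies wholly before its GENCODE 29 span. The GJA1 window is chr6:121435396-121435695 on the plus strand, that of GJB2 chr13:20192889-20193188 on the minus strand and that of PANX1 chr11:94128591-94128890 on the plus strand. Capitals mark matches on either strand to the GC box GGGCGG, the AP-1 site TGANTCA, the TATA box TATAAA or the TEAD site GGAATG.
GJA1: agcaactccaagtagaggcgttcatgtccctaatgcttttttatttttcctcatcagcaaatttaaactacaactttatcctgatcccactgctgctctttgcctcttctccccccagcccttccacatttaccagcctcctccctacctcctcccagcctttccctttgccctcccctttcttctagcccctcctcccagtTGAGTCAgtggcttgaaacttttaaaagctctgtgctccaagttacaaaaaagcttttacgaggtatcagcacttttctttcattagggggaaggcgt
GJB2: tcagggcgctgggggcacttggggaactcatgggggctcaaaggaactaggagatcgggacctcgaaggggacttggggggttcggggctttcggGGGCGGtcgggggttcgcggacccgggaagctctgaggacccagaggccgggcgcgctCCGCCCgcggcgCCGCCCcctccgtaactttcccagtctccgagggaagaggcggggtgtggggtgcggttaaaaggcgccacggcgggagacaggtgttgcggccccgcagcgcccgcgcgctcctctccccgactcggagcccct
PANX1: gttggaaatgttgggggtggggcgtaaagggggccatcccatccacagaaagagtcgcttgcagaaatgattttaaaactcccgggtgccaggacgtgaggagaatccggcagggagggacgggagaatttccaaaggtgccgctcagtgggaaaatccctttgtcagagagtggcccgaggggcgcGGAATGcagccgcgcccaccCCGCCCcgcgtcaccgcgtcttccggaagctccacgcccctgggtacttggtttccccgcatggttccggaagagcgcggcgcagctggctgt

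The 3 promoters differed in base composition. GC content was 47.0% in the GJA1 promoter, 71.7% in that of GJB2 and 62.3% in that of PANX1, against a median of 58.7% over 35116 promoters of the same length. The GJA1 window held 3 CpG dinucleotides, the GJB2 window 33 and the PANX1 window 24, against a median of 14. The only motif match in the GJA1 window was an AP-1 site at −48 from the start, a motif present in 7.71% of all promoters. The GJB2 window held 3 GC boxes, at −155, −97 and −85, and the PANX1 window 1, at −43. The GC box was present in 44.95% of all promoters. PANX1 also held a TEAD site at −63, a motif found in 14.03% of promoters. None of the 3 windows held TATAAA, which 11.5% of promoters did. No 2 of the motifs overlapped here. These matches describe the letters of the windows and were not tested as binding sites.

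GJA1 fell 2.08-fold after knockdown, GJB2, PANX1 and PANX2 rose, and GJC1 did not pass the test. Of the 5 tested genes, 3 were called higher and 1 lower, beside the 32.2% of all tested genes called in each direction. The other 3 of the 8 genes, GJA3, GJA4 and GJA5, had too few counts to be tested. The plot of levels by library shows the 8 genes on a common log axis.

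**Figure D1:**
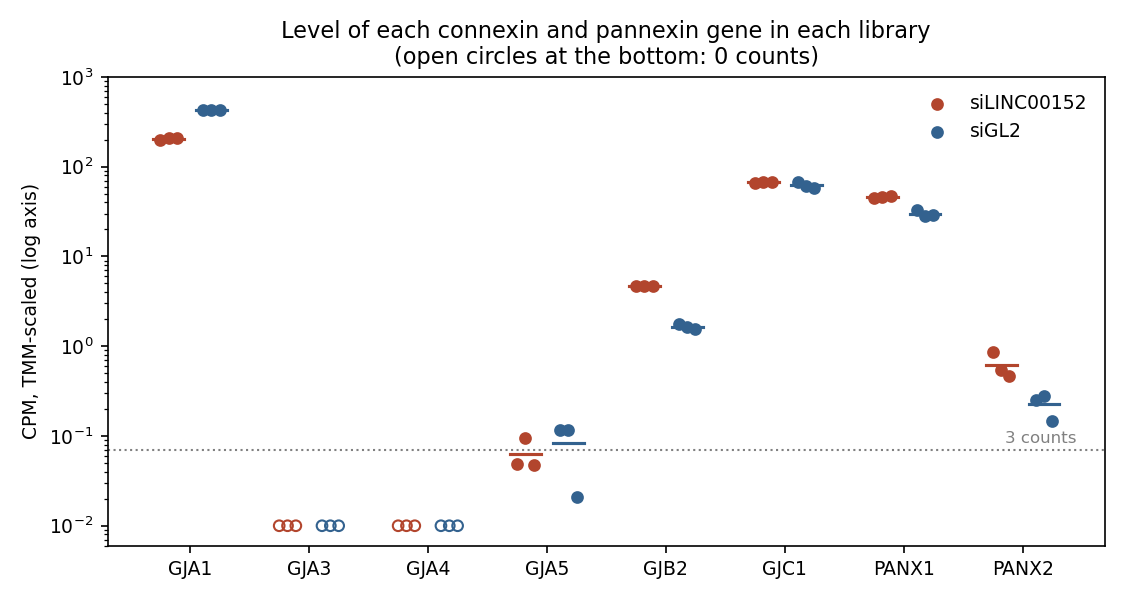
Level of each gene in CPM (TMM-scaled, log axis) in every library, with siLINC00152 libraries in red to the left of siGL2 libraries in blue, group means as short bars and libraries with 0 counts as open circles at the bottom. GJA1 has the highest CPM in both groups, uncorrected for length, and lies lower in all 3 siLINC00152 libraries, GJB2, PANX1 and PANX2 lie higher in them, GJC1 overlaps between groups, and GJA3 and GJA4 had no counts.

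GJA1, connexin 43, had 8181, 8767 and 8889 counts in the siLINC00152 libraries, against 18392, 18483 and 20273 counts in the siGL2 libraries. All 3 siLINC00152 libraries lay below all 3 siGL2 libraries, and the libraries of each group were close together. Its level was 205 ± 5.47 CPM in the siLINC00152 libraries and 427 ± 2.55 CPM in the siGL2 libraries (SD, n = 3 each). The log2 fold change was −1.05 ± 0.04 (SE), with a 95% confidence interval of −1.14 to −0.97 (edgeR adjusted p = 2.03e-14). Of all tested genes, 3.09% had a lower log2 fold change than GJA1. The same held for 22 of the 2364 genes averaging 100 CPM or more, or 0.931%. GJA1 (ENSG00000152661.8) occupies chr6:121435577-121449727 (hg38, plus strand). Beside its fall, the 9 astrocyte and glioma markers summed to 8922 to 9223 CPM in the siLINC00152 libraries and 11370 to 11996 CPM in the siGL2 libraries, mainly VIM, and their part in the result was not tested. Of the 75-base stretches of its transcripts, 2.65% also occur in other genes, mainly in the processed pseudogene GJA1P1.

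The other alpha connexins were at or near 0. GJA3 (connexin 46, known from the lens; chr13:20138255-20161049, minus strand) and GJA4 (connexin 37, known from endothelium; chr1:34792998-34795747, plus strand) had 0 counts in all 6 libraries, and a count of 0 allows up to 3 counts, or 0.0634 to 0.0730 CPM per library, counting error only. GJA5 (connexin 40, known from endothelium and the heart; chr1:147756199-147773362, minus strand) had 2, 4 and 2 counts in the siLINC00152 libraries, against 5, 5 and 1 counts in the siGL2 libraries. These counts overlap between groups and lie at or near that limit, and no difference was detectable at this depth (exact permutation test of CPM, two-sided p = 0.8, with 0.1 the smallest p that 3 against 3 libraries allow). Of the exonic bases of GJA5, 20.3% overlap a gene on the opposite strand, and whether the counting used strand was not stated. Markers of endothelium were low as well, and their part in the GJA5 counts was not tested. The summed level of their 6 genes was 3.83 to 4.19 CPM in the siLINC00152 libraries and 8.68 to 9.60 CPM in the siGL2 libraries. The most abundant of them, the VEGF receptor gene KDR, stood at 1.22 ± 0.122 CPM in the siLINC00152 libraries and 5.34 ± 0.281 CPM in the siGL2 libraries (SD, n = 3 each). PECAM1 (−0.88 ± 0.17) and TEK (−0.82 ± 0.19) were also lower, whereas VWF, the von Willebrand factor gene, was higher, at 0.724 ± 0.0268 CPM in the siLINC00152 libraries and 0.334 ± 0.109 CPM in the siGL2 libraries (1.10 ± 0.27; log2 fold change ± SE; edgeR adjusted p of 0.00123 or lower for the 3 genes). CLDN5 stood at 0.0320 CPM in the siLINC00152 libraries and 0.00768 CPM in the siGL2 libraries. The endothelial cadherin gene CDH5 stood at 0.0802 ± 0.0570 CPM in the siLINC00152 libraries and 0.121 ± 0.0761 CPM in the siGL2 libraries (SD, n = 3 each).

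GJB2, the beta connexin 26, widely expressed in epithelia and in the cochlea, rose 2.84-fold at a low level. It had 190, 198 and 200 counts in the siLINC00152 libraries, against 76, 71 and 73 counts in the siGL2 libraries. The groups were far apart relative to the spread within each. The level was 4.68 ± 0.0455 CPM in the siLINC00152 libraries and 1.65 ± 0.104 CPM in the siGL2 libraries (SD, n = 3 each). The log2 fold change was 1.51 ± 0.12 (SE), with a 95% confidence interval of 1.26 to 1.75 (edgeR adjusted p = 4.92e-10), and 1.98% of tested genes had a larger change in either direction. GJB2 (ENSG00000165474.6) occupies chr13:20187463-20193010 (hg38, minus strand), and none of its 75-base stretches occurs in another annotated gene. It stands between GJA3, 26414 bases away, and GJB6 (connexin 30), 28952 bases away, and both of these neighbours had 0 counts in all 6 libraries.

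GJC1 (ENSG00000182963.9, chr17:44798448-44830816, minus strand, hg38), the gamma connexin 45, known from the conduction system of the heart and from vascular smooth muscle, came second to GJA1 in connexin reads. It had 2666, 2847 and 2860 counts in the siLINC00152 libraries, against 2909, 2657 and 2714 counts in the siGL2 libraries. Its level was 66.6 ± 1.495 CPM in the siLINC00152 libraries and 62.0 ± 4.85 CPM in the siGL2 libraries (SD, n = 3 each), and siGL2 replicate A, at 67.0 CPM, lay within the siLINC00152 range. GJC1 missed the threshold, at a log2 fold change of 0.10 ± 0.05 (SE; 95% confidence interval −0.0082 to 0.22; edgeR adjusted p = 0.0965). Without siGL2 replicate A it passed, at 0.17 (edgeR adjusted p = 0.00268), and without siGL2 replicate C it stood at 0.05 (edgeR adjusted p = 0.474).

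PANX1, the ubiquitous pannexin and ATP-release channel, rose 1.54-fold. It had 1857, 1932 and 2025 counts in the siLINC00152 libraries, against 1420, 1219 and 1372 counts in the siGL2 libraries. All siLINC00152 libraries lay above all siGL2 libraries. The level was 46.2 ± 1.19 CPM in the siLINC00152 libraries and 30.0 ± 2.41 CPM in the siGL2 libraries (SD, n = 3 each), with a log2 fold change of 0.63 ± 0.06 (SE; 95% confidence interval 0.51 to 0.75; edgeR adjusted p = 7.51e-09). PANX2, a pannexin known mainly from neurons and glia, had 35, 23 and 20 counts in the siLINC00152 libraries, against 11, 12 and 7 counts in the siGL2 libraries. The groups did not overlap, but replicate A of the siLINC00152 group stood above its fellow libraries. Its level was 0.623 ± 0.202 CPM in the siLINC00152 libraries and 0.226 ± 0.0690 CPM in the siGL2 libraries (SD, n = 3 each). PANX2 rose by 1.46 ± 0.33 on the log2 scale (SE; 95% confidence interval 0.78 to 2.14; edgeR adjusted p = 5.80e-04), and the value ranged from 1.17 to 1.63 when each library was left out in turn. The 5 neuronal markers, mainly SNAP25, summed to 51.4 to 56.9 CPM in the siLINC00152 libraries and 75.1 to 77.6 CPM in the siGL2 libraries. Of these markers, RBFOX3, NEFL and STMN2 averaged 0.0316 CPM or less in either group. The part of these markers in the PANX2 result was not tested. PANX1 (ENSG00000110218.8) occupies chr11:94128928-94181972 and PANX2 (ENSG00000073150.13) chr22:50170731-50180294 (hg38), both on the plus strand.

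**Figure D2:**
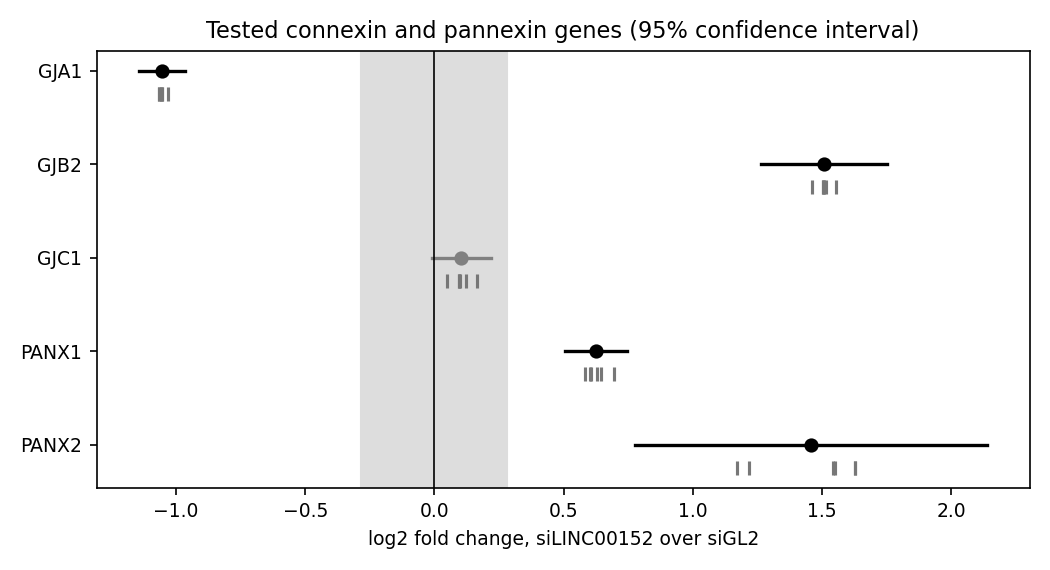
Log2 fold change of siLINC00152 over siGL2 with its 95% confidence interval for the 5 tested genes, in black where the adjusted p is under 0.05 and grey otherwise. Ticks below each line give the value with each library left out in turn, and the grey band holds the middle 50% of all tested genes, so GJA1, GJB2, PANX1 and PANX2 lie outside the band and GJC1 inside it.

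Leaving out siGL2 replicate A gave log2 fold changes of −1.06 for GJA1, 1.55 for GJB2, 0.69 for PANX1 and 1.55 for PANX2, each still past the threshold (edgeR adjusted p of 7.03e-04 or lower).

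The rest of the family was mostly at or near 0. Of 15 other connexin and pannexin genes in the tables, 7 had 0 counts in every library, 6 were untested with at most 13 counts over all libraries together, and the remaining 2 are not described here. The untested gene with the most counts, GJC3, had 5, 1 and 2 counts in the siLINC00152 libraries, against 1, 0 and 4 counts in the siGL2 libraries, and the groups overlapped. Beside the rise of GJB2, the 4 epithelial markers summed to 1.17 to 1.61 CPM in the siLINC00152 libraries and 1.06 to 1.504 CPM in the siGL2 libraries, nearly all of it EPCAM, which stood at 1.24 ± 0.216 CPM in siLINC00152 and 1.24 ± 0.212 CPM in siGL2 libraries (SD, n = 3 each). KRT5 had no count in any library. Oligodendrocyte markers summed to 0.469 to 0.633 CPM in the siLINC00152 libraries and 0.507 to 0.634 CPM in the siGL2 libraries, with MOG, MAG and SOX10 at 0.

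**Figure D3:**
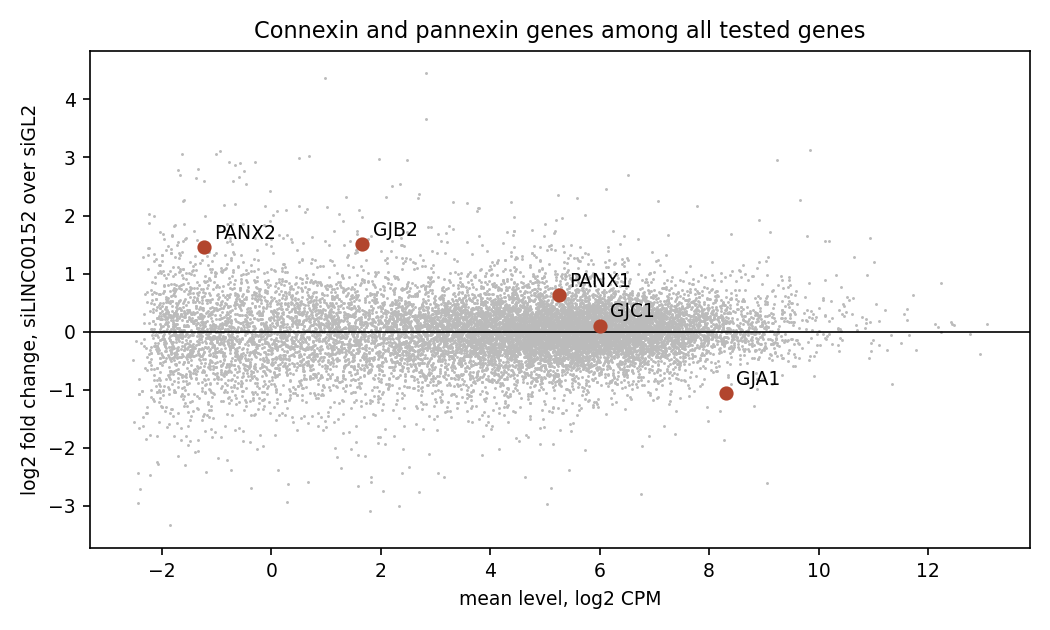
Log2 fold change of siLINC00152 over siGL2 against the mean level in log2 CPM for all 14078 tested genes (grey), with 5 of the 8 genes in red. GJA1 lies at the lower edge of the genes of its level, GJB2 and PANX2 lie high among scarce genes, and GJC1 lies near 0.

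Connexin reads were fewer after knockdown, and a smaller share of them came from GJA1. The 20 connexin genes in the tables together had 279 ± 6.85 CPM in the siLINC00152 libraries and 492 ± 2.63 CPM in the siGL2 libraries (SD, n = 3 each), a ratio of 0.568. Without correction for length, GJA1 made up 73.4%, 73.6% and 73.8% of connexin reads in the siLINC00152 libraries, against 85.8%, 86.9% and 87.7% in the siGL2 libraries. GJC1 made up 23.9 ± 0.103% in the siLINC00152 libraries and 12.6 ± 0.920% in the siGL2 libraries (SD, n = 3 each). Per kilobase of exon, the GJA1 share was 85.0 ± 0.216% in the siLINC00152 libraries and 93.7 ± 0.458% in the siGL2 libraries (SD, n = 3 each). This takes 8660 bases of annotated exon for GJC1, whose transcripts run from 1837 to 7640 bases. A shorter GJC1 length would make the GJA1 share smaller, beyond what the SD covers. Without correction for length, GJB2 made up 1.68 ± 0.0255% in the siLINC00152 libraries and 0.335 ± 0.0194% in the siGL2 libraries (SD, n = 3 each). The groups did not overlap in any of these shares, and the exact two-sided permutation p was 0.1 for each, the smallest that 3 against 3 libraries allow. The shares are parts of a common total held mostly by GJA1, so they are not separate results. A fall in GJA1 alone makes the GJC1 share larger, and the level of GJC1 was not called (edgeR adjusted p = 0.0965). The 17 connexins other than GJA1, GJC1 and GJB2 together gave 2.36 ± 0.131 CPM in the siLINC00152 libraries and 1.32 ± 0.150 CPM in the siGL2 libraries (SD, n = 3 each). The number of GJA1 reads for each GJC1 read was 3.07 to 3.11 in the siLINC00152 libraries and 6.32 to 7.47 in the siGL2 libraries. For each PANX1 read it was 4.39 to 4.54 in the siLINC00152 libraries and 12.95 to 15.2 in the siGL2 libraries. Such ratios within a library do not depend on how libraries are scaled to each other.

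**Figure D4:**
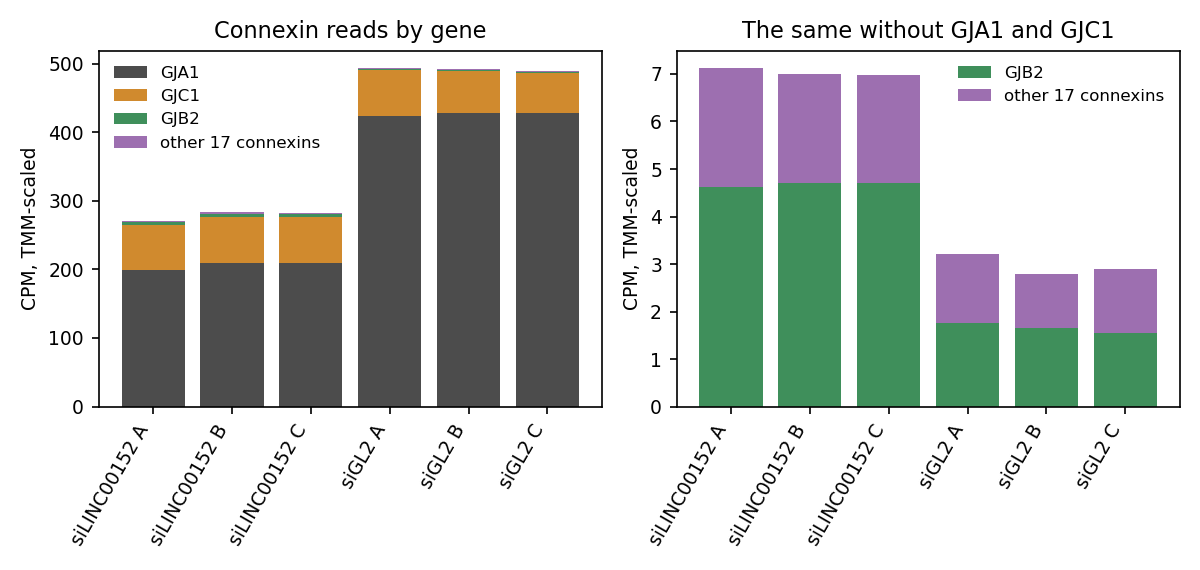
CPM (TMM-scaled, linear axis from 0) of connexin genes in each library, stacked by gene on the left and without GJA1 and GJC1 on the right, with the siLINC00152 libraries left of the siGL2 libraries. The connexin total is 271 to 283 CPM in the siLINC00152 libraries and 489 to 494 CPM in the siGL2 libraries, while the GJB2 part is larger in the siLINC00152 libraries.

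Per kilobase of annotated exon, GJA1 was the most abundant of the 8 genes in both groups, at 60.2 ± 1.603 CPM per kb in the siLINC00152 libraries and 125 ± 0.747 CPM per kb in the siGL2 libraries (SD, n = 3 each). PANX1 followed at 16.7 ± 0.429 CPM per kb in the siLINC00152 libraries and 10.8 ± 0.869 CPM per kb in the siGL2 libraries (SD, n = 3 each). GJC1 stood at 7.69 ± 0.173 CPM per kb in the siLINC00152 libraries and 7.15 ± 0.560 CPM per kb in the siGL2 libraries (SD, n = 3 each). The order of these neighbours rests on the transcript assumed. GJC1 transcripts of 1837 to 7640 bases are annotated, and over that range its level would be 8.72 to 36.2 CPM per kb in the siLINC00152 libraries and 8.11 to 33.7 CPM per kb in the siGL2 libraries, on either side of PANX1. GJB2 stood at 1.84 ± 0.0179 CPM per kb in the siLINC00152 libraries and 0.646 ± 0.0409 CPM per kb in the siGL2 libraries, and PANX2 at 0.201 ± 0.0652 CPM per kb in the siLINC00152 libraries and 0.0730 ± 0.0222 CPM per kb in the siGL2 libraries (SD, n = 3 each). GJA5 came last of the genes with a count, and GJA3 and GJA4 followed at 0.

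The genes whose levels followed GJA1 most closely were C8orf33, MCM3, NUMB and CDCA7. These are 4 of 9229 genes averaging 10 CPM or more whose centred log2 CPM over the 6 libraries differed least from that of GJA1, by a root mean square of 0.0166 to 0.0280. Their log2 fold changes were −1.05, −1.03, −1.08 and −0.9997, in that order. MCM3 is a subunit of the replicative helicase and NUMB an adaptor that restrains Notch signalling. As the levels of GJA1 varied mainly between the groups, genes with a like fold change rank high by this measure.

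The neighbours of the 8 genes on the chromosome were called at shares not far from those of all tested genes. Within 100 kb, 24 other protein-coding genes were in the tables and 15 were tested, of which 4 rose, 6 fell and 5 were not called, or 26.7% higher and 40% lower beside 32.2% of all tested genes in each direction. No protein-coding gene in the tables lay within 100 kb of GJA1. On chromosome 13, ZMYM2, a zinc finger gene 46426 bases from GJA3 and 95634 bases from GJB2, rose by 0.76 ± 0.05 on the log2 scale (SE; edgeR adjusted p = 1.18e-10). ACP6, the only tested neighbour of GJA5, was not called (−0.11 ± 0.09; edgeR adjusted p = 0.323). Around PANX2, the mitogen-activated kinase genes MAPK11 (−1.11 ± 0.08) and MAPK12 (−0.81 ± 0.09) fell and the plexin gene PLXNB2 rose (0.88 ± 0.05; log2 fold change ± SE; edgeR adjusted p of 1.55e-07 or lower for each). TRABD (−0.43 ± 0.06) and the histone deacetylase gene HDAC10 (−0.49 ± 0.10) also fell (edgeR adjusted p of 3.95e-04 or lower), and TUBGCP6 was not called (0.12 ± 0.06; edgeR adjusted p = 0.0931). Around GJC1, EFTUD2 (−0.14 ± 0.04) and KIF18B (−0.35 ± 0.06) fell (edgeR adjusted p = 0.00535 and 1.70e-05), and ADAM11, DBF4B and CCDC103 were not called.

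Proteins that scaffold, modify or remove connexins, and genes of the ATP signalling that PANX1 feeds, were read from 5 lists holding 75 genes. Of these, 55 were tested. Together 21 rose, 16 fell and 18 were not called, or 38.2% higher and 29.1% lower beside 32.2% of all tested genes in each direction. The number lower was 21, equal to the number higher, with library size alone as the scale, and 13 with DESeq2. Over all tested genes the number lower moved likewise, at 5389 with library size alone and 4187 with DESeq2, beside 4529 in the main fit. The median log2 fold change of the 55 genes was 0.02, beside −0.0011 for all tested genes. The shares over the 5 lists lay near the background.

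Among connexin scaffolds and cytoskeletal partners, 7 of 13 tested genes were higher (53.8%) and 3 lower (23.1%), and the median log2 fold change was 0.31. The background was 32.2% of all tested genes in each direction. TUBB, tested but not called, had only 14, 10 and 13 counts in the siLINC00152 libraries, against 9, 12 and 10 counts in the siGL2 libraries. The SE of its log2 fold change was 0.34, so a small change could not be seen. CAV1, caveolin 1, which binds connexin 43 in membrane rafts, stood at 1696 ± 31.7 CPM in the siLINC00152 libraries and 859 ± 20.8 CPM in the siGL2 libraries (SD, n = 3 each), a log2 fold change of 0.98 ± 0.04 (SE; edgeR adjusted p = 5.44e-14). CDH2, N-cadherin, whose adherens junctions stand beside gap junctions, rose by 0.76 ± 0.04, and CAV2, caveolin 2, by 0.56 ± 0.06. DBN1, drebrin, an actin-binding partner of connexin 43, fell by 0.42 ± 0.05 (log2 fold change ± SE; edgeR adjusted p of 2.61e-07 or lower for the 3 genes). Of the connexin kinases, 2 of 11 tested were higher (18.2%), 5 lower (45.5%) and 4 not called, and the median was −0.06. The 4 with the smallest p were all lower, namely AKT1 (−0.30 ± 0.04), PRKCE, a protein kinase C isoform (−0.40 ± 0.06), CDK1, the mitotic kinase (−0.33 ± 0.05), and MAPK3, also called ERK1 (−0.29 ± 0.05; log2 fold change ± SE; edgeR adjusted p of 2.02e-05 or lower for each).

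Of 13 genes of connexin assembly and turnover, 6 were higher (46.2%), 0 lower and 7 not called, and the median log2 fold change was 0.10. Of all tested genes, 32.2% were called in each direction. NEDD4, a ubiquitin ligase that binds connexin 43, stood at 332 ± 6.70 CPM in the siLINC00152 libraries and 200 ± 13.6 CPM in the siGL2 libraries (SD, n = 3 each), a log2 fold change of 0.73 ± 0.05 (SE; edgeR adjusted p = 5.43e-11). The ubiquitin ligase gene WWP1 (0.28 ± 0.04) and the endocytic adaptor gene EPS15 (0.29 ± 0.05) rose, as did SGSM3 (0.38 ± 0.05), whose product also binds connexin 43 (log2 fold change ± SE; edgeR adjusted p of 1.79e-05 or lower for the 3 genes). In SGSM3, 53.2% of 75-base stretches also occur in other annotated genes, mainly AL022238.4.

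Of 25 genes of ATP and adenosine receptors and ectonucleotidases, 10 were tested. The test called 1 of them higher (10%) and 6 lower (60%), beside 32.2% of all tested genes in each direction. The median log2 fold change of the 10 was −0.18. P2RY6, a receptor for UDP, had 78, 75 and 87 counts in the siLINC00152 libraries, against 184, 178 and 221 counts in the siGL2 libraries, and fell by 1.19 ± 0.12 (SE; edgeR adjusted p = 2.43e-08). The ATP-gated channel gene P2RX6 fell by 0.57 ± 0.06 and the ADP receptor gene P2RY1 by 0.45 ± 0.09, whereas P2RX4, another ATP-gated channel, rose by 0.28 ± 0.07 (edgeR adjusted p = 0.00245). Of the other large-pore channels, 5 of 8 tested were higher (62.5%), 2 lower (25%) and 1 not called, and the median was 0.30. LRRC8A, the obligate subunit of the volume-regulated anion channel, rose by 0.32 ± 0.05 and its partner subunit gene LRRC8C fell by 0.83 ± 0.08 (log2 fold change ± SE; edgeR adjusted p = 2.23e-05 and 1.93e-08). The calcium homeostasis modulator channel gene CALHM2 rose by 0.47 ± 0.06 (edgeR adjusted p = 4.77e-07). CALHM3, of the same family, had 21, 28 and 20 counts in the siLINC00152 libraries, against 2, 3 and 6 counts in the siGL2 libraries, a log2 fold change of 2.70 ± 0.39 (SE; edgeR adjusted p = 4.29e-06). In CALHM2, 19.5% of exonic bases overlap a gene of the opposite strand.

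**Figure D5:**
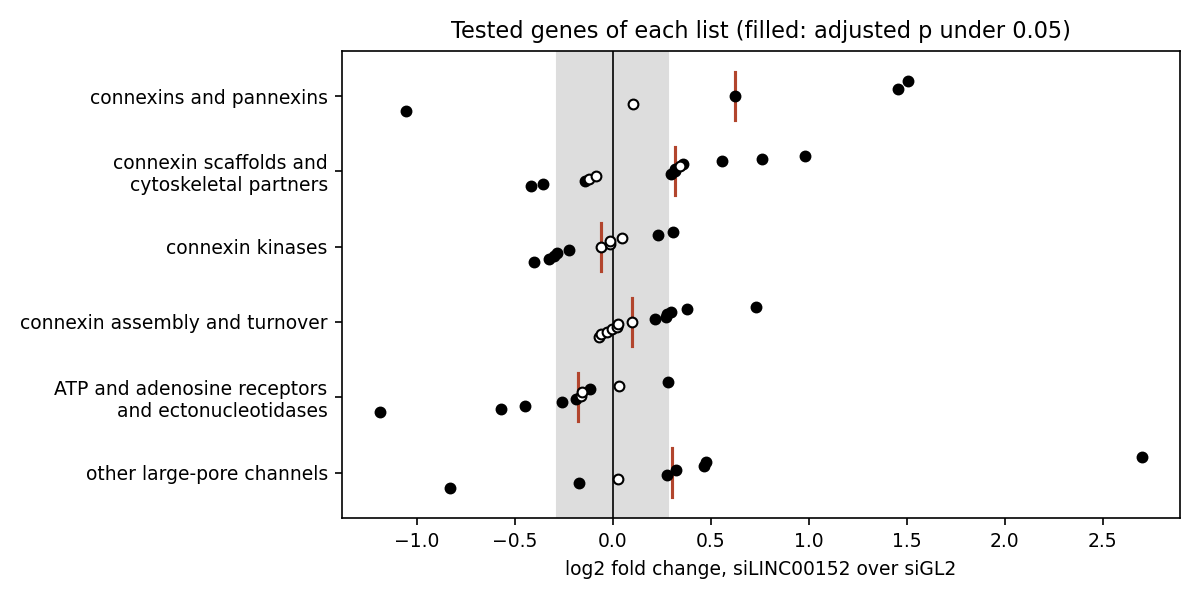
Log2 fold change of siLINC00152 over siGL2 for each tested gene of the 8 connexin and pannexin genes (top) and of the 5 lists, filled where the adjusted p is under 0.05, with each list's median as a red line and the middle 50% of all tested genes as a grey band. The connexins and pannexins spread from −1.05 to 1.51, and the 13 assembly and turnover genes from −0.07 to 0.73.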

How the data were processed

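Libraries from polyA RNA of U87 cells kept strand (directional kit) and were read from both ends, 75 bases each, per the labels' protocols. The authors deposited 1 table of raw counts per gene symbol for each of 6 libraries, not normalized. The build hg38 and the tools bcl2fastq, HISAT, HTSeq and DESeq are listed, per the submitters' processing notes, with no version or role. Not given in the sources used here were the annotation, the strand setting and how multiply mapping reads were treated.

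A filter on low counts (filterByExpr with its minimum of 10 counts and total of 15) left 14078 of 27192 genes. Libraries were scaled by TMM and compared with edgeR 4.0.16's robust quasi-likelihood test (R 4.3.3) on all 6 libraries with no covariate, two-sided, with Benjamini-Hochberg adjustment over all tested genes. DESeq2 1.42.0, other scalings, no filter, a replicate block and leaving out each library were the alternatives. The edgeR step was tested on simulated data with 200 changed genes, raised and lowered in equal number. As 9058 genes were called in the real data, that simulation does not check the scaling. Standard errors are the size of the log2 fold change over the square root of F. Counting limits cover counting error only. No pair of replicates agreed within sampling noise (chi-square per degree of freedom 2.91 to 13.7).

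Positions, exon lengths, neighbours and shared stretches come from GENCODE 29 on GRCh38, which hg38 names, with all 8 genes matched, and promoters from RefSeq (GRCh38.p14), which held 5 of the 8. The 8 genes, the lists and the markers were chosen with earlier results of these data known. The text names all 8 genes, other family genes with at least 10 counts over all libraries, up to 4 genes of each list with the smallest p, the genes most like GJA1 among the 5 nearest, and tested protein-coding genes within 100 kb. A few genes that this rule covers are not reported here. Older symbols were used where the tables have them. Exact permutation tests used scipy 1.17.1 under Python 3.11.15, and figures matplotlib 3.10.9.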

Additional observations from a re-analysis of the deposited data

How the results depend on the processing

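Of 27 log2 fold changes recomputed under 11 alternatives, all kept their direction, and 296 of 297 values stayed on the same side of the threshold. The exception was GJC1, which passed without siGL2 replicate A (log2 fold change 0.17, edgeR adjusted p = 0.00268). The count of connexins and pannexins called higher was then 4 rather than 3, and siGL2 replicate A also differed most from its fellow libraries in a chi-square of counts. The cause was not tested. The GJA1 log2 fold change lay between −1.12, with library size alone as the scale, and −1.03, without siLINC00152 replicate A. With library size alone GJC1 stood at 0.04, the median of all tested genes at −0.07, and 3755 genes were higher and 5389 lower. Of the 5 lists together, 21 or 22 genes were higher under every alternative run. The number lower was 13 with DESeq2, 21 with library size alone, and 13 to 18 with 1 library left out. Of all tested genes, 4187 were lower with DESeq2. Without the filter on low counts GJA5 entered the fit at −0.36 ± 0.76 (SE) and did not pass (edgeR adjusted p = 0.740).

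Libraries with the same letter were compared in both groups. Deviations from the group means correlated at 0.157 for A, −0.104 for B and 0.211 for C across 9211 genes, and not every library correlated best with its own letter, so the letters were not taken to pair the libraries. With the letter as a replicate block, 4571 genes were higher and 4584 lower, GJA1 stood at −1.05, and no call among the 8 genes changed. The scarce genes PANX2 and GJA5 are limited by depth.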
